A study of Mus musculus with 6 samples.

Results

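The Eph receptors are cell-surface tyrosine kinases that bind ephrins on neighbouring cells. The 10 receptor genes described here, Epha3, Epha4, Epha5, Epha7, Epha8, Ephb1, Ephb2, Ephb3, Ephb4 and Ephb6, were taken by name through the GRCm38 annotation from the 53421 genes of the count table. All 10 passed the filter on low counts, which kept 17214 genes. The study used RNA-seq to ask which transcripts change when YTHDF2, a protein that binds N6-methyladenosine (m6A) in RNA, is depleted from cultured mouse cerebellar granule cells (GCs). GCs of C57BL/6 pups, given in the labels as postnatal day 8, received short hairpin RNAs by lentivirus and were selected with puromycin. There were 3 libraries with a hairpin against Ythdf2 (shYthdf2) and 3 with a control hairpin (shCtrl), and both groups carried the virus and had the selection. The names of the shYthdf2 libraries carry the number of a single hairpin, so a difference between the groups cannot be told apart from an effect of that hairpin on other transcripts. The sample titles gave the groups the other way round from the library names. The library names were used, and if the titles were right every direction below would be inverted.

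Eph receptors fall into an A class, which mainly binds ephrins held to the membrane by a lipid anchor, and a B class, which mainly binds ephrins with a transmembrane segment. Contact sends a signal into the receptor-bearing cell and a reverse signal into the ephrin-bearing cell, and growth cones often turn away from such contacts. In the developing brain the family is known for axon guidance, topographic maps and the formation of excitatory synapses.

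The libraries held 17246821 to 21546595 counts. Ythdf2 itself had 501, 403 and 501 normalized counts in shYthdf2 replicates 1, 2 and 4 and 619, 841 and 629 in the shCtrl replicates with the same numbers. Its mean was 67.3% of that in shCtrl, and the groups did not overlap (log2 fold change -0.57 ± 0.16 SE, edgeR quasi-likelihood test, adjusted p = 0.125, exact permutation p = 0.1, the smallest that 3 against 3 libraries allow). Without replicate 2 of both groups its log2 fold change was -0.32 (edgeR, adjusted p = 0.00124, with a range over the alternatives of 0.00124 to 0.943). Ythdf2 was thus lower in the libraries whose names place them in the KD group. Between same-numbered libraries its gap was widest in replicate 2 (403 against 841 normalized counts). Epha3, Epha4 and Ephb3, with the largest fold changes of the receptors, had their smallest log2 ratios there (0.05, 0.27 and 0.36). Epha5, Epha7, Ephb1, Ephb4 and Ephb6 had their largest in size there. Whether the receptors follow the depth of the depletion was not tested. Replicates 1 and 4 of each group lay much closer to each other than to replicate 2. The chi-square statistic per degree of freedom over genes was 3.34 between shYthdf2 replicates 1 and 4 and 4.64 between shCtrl replicates 1 and 4, against 32.9 to 54.8 between replicate 2 and the others of its group. Between replicate 2 of shYthdf2 and replicate 2 of shCtrl it was 22.1, so these lay closer to each other than to their own groups. Results are therefore also given without replicate 2 and with replicates 1 and 4 summed. The methods of the study call the libraries biological replicates, and the labels do not say which cultures they came from. The p-values measure only the spread between these libraries. Without replicate 2 of both groups they measure only the spread between replicates 1 and 4, which lay close together, so they can be too small. Without shCtrl replicate 2 the same holds for the spread within shCtrl.

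All 10 transcripts contained GGACT, a common form of the sequence at which m6A is deposited, although m6A itself was not measured in these libraries. For each gene the transcript with the longest coding sequence was searched, which is not always the longest transcript. Those of the receptors held 5 to 11 matches, or 1.164 to 2.389 per kb, with a median of 1.712. Over the 13719 transcripts searched, 92.1% held a match, and the median was 1.056 per kb. Ephb3 had the most per kb and Ephb4 the fewest. The matches nearest the stop codon are shown for the 3 receptors with the largest fold changes and for the pair with the highest levels, since the region around the stop codon is where m6A is often found. Capitals mark GGACT, with 10 bases on each side, from GRCm38 and 5′ to 3′ on the strand of the transcript.
Epha3: agttgatgttGGACTgctggcagaa
Epha4: agttaatgctGGACTgctggcagaa
Ephb3: tgcccccccaGGACTgcacaaggat
Ephb1: agaatgaactGGACTtgttgcccac
Ephb2: gcacgataccGGACTacaccagctt

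The Epha3 window (chr16:63566681-63566705, minus strand) lay in the coding part of exon 15 of 17, 376 bases before the stop codon. That of Epha4 (chr1:77377516-77377540, minus strand) lay in the coding part of exon 15 of 18, 385 bases before it. The Epha3 and Epha4 windows differed at 2 of 25 positions. The Ephb3 match (chr16:21222541-21222565, plus strand) was in the 3′ UTR in exon 16 of 16, 37 bases after the stop codon. The Ephb1 match (chr9:101923333-101923357, minus strand) was also in the 3′ UTR in exon 16 of 16, 141 bases after it. The Ephb2 match (chr4:136656021-136656045, minus strand) was coding, in exon 15 of 16 and 229 bases before the stop codon. A match does not show that a site is methylated.

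Levels between receptors were compared as CPM (counts scaled to library size) per kb of merged exon length. In shCtrl the order was Ephb1 (mean 22.5 CPM per kb), Ephb2 (18.9), Epha8 (12.7), Epha3 (8.88), Ephb6 (6.86), Epha7 (5.28), Epha5 (3.11), Ephb3 (1.76), Epha4 (0.89) and Ephb4 (0.60). Ephb1 and Ephb2 thus held 27.6% and 23.2% of the summed level of the 10 receptors. The shCtrl libraries of Epha8 and Epha3, of Epha3 and Ephb6, and of Ephb6 and Epha7 overlapped, so these neighbours in the order were not separated by their spread. All other neighbours had ranges that did not overlap in shCtrl. In shYthdf2 the order of the means was the same but for Epha3, which came after Ephb6 (5.54 against 6.86 CPM per kb). There the libraries of Ephb2 and Epha8 overlapped, with Epha8 at 17.6 and Ephb2 at 17.5 CPM per kb in replicate 2. Epha3 held 10.9% of the summed level in shCtrl and 6.77% in shYthdf2. The sum over the receptors was 78.2, 87.2 and 80.2 CPM per kb in shYthdf2 and 81.3, 81.2 and 81.7 in shCtrl. The groups overlapped, and the means were 81.9 and 81.4. The order depends on the length used. With the longest transcript in place of merged exons, Epha3 (13.6 CPM per kb in shCtrl) came before Epha8 (12.7), and Epha7 (7.73) and Epha5 (7.11) came before Ephb6 (6.88).

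**Figure D1:**
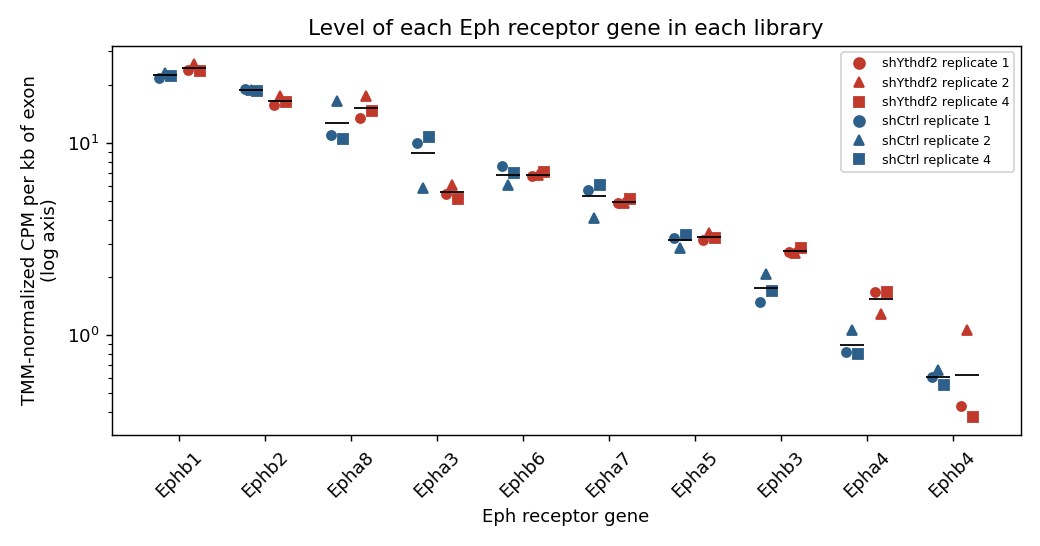
Level of each Eph receptor in the 6 libraries, in CPM per kb of merged exon length on a log axis, with receptors in the order of their shCtrl mean, points for single libraries (shCtrl blue, shYthdf2 red) and lines for group means. Ephb1 and Ephb2 have the highest means in both groups, and Epha4 and Ephb4 the lowest. In shYthdf2 the libraries of Ephb2 and Epha8 overlap.

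In the comparison of shYthdf2 with shCtrl, Epha4 and Ephb3 were at higher levels and Epha3 at a lower mean level after the KD, and none of the 10 receptors passed an adjusted p of 0.05. Of all genes tested, 0.604% passed it in the edgeR quasi-likelihood test. At an unadjusted p under 0.05 there were 3 receptors, Epha4 and Ephb3 higher (2 of 10, against 9.5% of all genes) and Epha3 lower (1 of 10, against 10.6%). The groups did not overlap for Epha4, Ephb1 and Ephb3, which were higher (3 of 10, against 12.6% of all genes), and for Ephb2, which was lower (1 of 10, against 13.4%). Each of these counts differs from the share of all genes by fewer than 2 genes. The median log2 fold change of the receptors was 0.05, beside 0.01 over all genes, with 7 higher and 3 lower. With RNA from whole cultures, fewer cells of a type and less RNA per cell cannot be told apart.

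The number of receptors called depended on the tool and on replicate 2. DESeq2 called 2 of the 10, Epha4 and Ephb3, and 7.68% of all genes. Limma-voom called 0 receptors (0.139% of all genes). With the replicate number as a block, 0 receptors passed the adjusted threshold (1.35% of all genes) and 5 had an unadjusted p under 0.05 (31.6% of all genes), the 3 above with Epha8 and Ephb2. Without shCtrl replicate 2, 4 receptors passed (Epha3, Epha4, Epha8 and Ephb3), with 18.3% of all genes. Without shYthdf2 replicate 2, none passed, with 4.7% of all genes. Without replicate 2 of both groups, 7 passed (Epha3, Epha4, Epha7, Epha8, Ephb1, Ephb2 and Ephb3) and 52.7% of all genes did too. With replicates 1 and 4 of each group summed, a setting chosen after the data were seen, 0% of genes passed, and 0 receptors had an unadjusted p under 0.05 (5.07% of all genes).

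**Figure D2:**
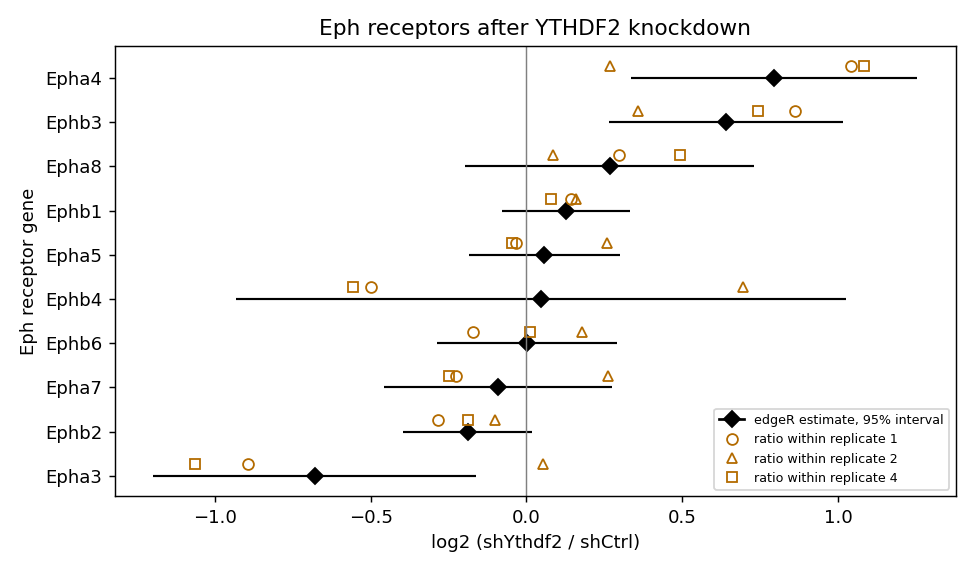
Log2 fold change of each Eph receptor, shYthdf2 against shCtrl, from edgeR with its 95% confidence interval, and the ratio within each replicate number as single points. For Epha4 and Ephb3 the intervals lie above 0 and all ratios are positive, while for Epha3 the ratio of replicate 2 is near 0 and the other pair is below it.

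Among the A class, Epha4 (ENSMUSG00000026235, chr1:77367185-77515088, minus strand) had the largest positive fold change. EphA4 binds ephrins of both classes. It had 257, 196 and 258 normalized counts in shYthdf2 replicates 1, 2 and 4 and 125, 163 and 122 in shCtrl. All shYthdf2 libraries were above all shCtrl libraries, and replicate 2 lay nearest the other group on both sides. The means were 237 ± 35.7 and 137 ± 22.7 (SD, n = 3), a log2 fold change of 0.79 ± 0.20 SE (95% confidence interval 0.33 to 1.25, edgeR, adjusted p = 0.0976). The log2 ratio was 1.04 and 1.08 in replicates 1 and 4 and 0.27 in replicate 2. The edgeR adjusted p was 0.0177 without shCtrl replicate 2 and 3.32e-06 without replicate 2 of both groups, and that of DESeq2 on all libraries was 0.0119. Over the 15 alternatives the adjusted p ran from 3.32e-06 to 0.999 and was past the threshold in 3.

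Epha3 (ENSMUSG00000052504, chr16:63543534-63864175, minus strand) encodes a high-affinity receptor of ephrin-A5. It had 892, 1002 and 849 normalized counts in shYthdf2 and 1655, 967 and 1772 in shCtrl. The shCtrl libraries were split, with replicates 1 and 4 far above every shYthdf2 library and replicate 2 within their range. The log2 ratio was therefore -0.89 and -1.06 in replicates 1 and 4 but 0.05 in replicate 2. The means were 914 ± 79.3 and 1464 ± 435 (SD, n = 3), or 62.4% of shCtrl, with a log2 fold change of -0.68 ± 0.22 SE (95% confidence interval -1.20 to -0.16, edgeR, adjusted p = 0.154). Without shCtrl replicate 2 the edgeR adjusted p was 0.0036 and the log2 fold change -0.91. Over all alternatives the log2 fold change ran from -0.98 to -0.52 and the adjusted p from 8.28e-10 to 0.999.

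Epha8 (chr4:136929419-136956816, minus strand) had 1205, 1575 and 1315 normalized counts in shYthdf2 and 982, 1486 and 936 in shCtrl. The groups overlapped because replicate 2 was high in both (log2 fold change 0.27 ± 0.20 SE, edgeR, adjusted p = 0.497). The within-replicate ratios were all positive, at 0.30, 0.08 and 0.49. The log2 fold change was 0.15 without shYthdf2 replicate 2, 0.17 without shCtrl replicate 1 and 0.14 without shCtrl replicate 4. Without shCtrl replicate 2 it was 0.51 (edgeR, adjusted p = 0.0424), and over all alternatives the adjusted p ran from 4.25e-05 to 0.999.

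Epha5 and Epha7, receptors known from the mapping of forebrain and retinal axons, had 990, 1081 and 1019 against 1013, 904 and 1052, and 916, 914 and 955 against 1071, 763 and 1135 normalized counts. In both the groups overlapped. The log2 fold changes were 0.06 (95% confidence interval -0.18 to 0.30, edgeR, adjusted p = 0.791) for Epha5 (chr5:84054761-84417382, minus strand) and -0.09 (-0.46 to 0.27, adjusted p = 0.778) for Epha7 (chr4:28813131-28967499, plus strand). These intervals leave room for changes of that size in either direction.

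In the B class, Ephb3 (ENSMUSG00000005958, chr16:21204755-21223305, plus strand), which acts beside EphB2 in commissural axons, had 342, 338 and 357 normalized counts in shYthdf2 and 188, 264 and 213 in shCtrl. The shYthdf2 libraries were close together, and all lay above every shCtrl library. The means were 346 ± 10.1 and 222 ± 38.4 (SD, n = 3), or 156% of shCtrl, with a log2 fold change of 0.64 ± 0.16 SE (95% confidence interval 0.26 to 1.02, edgeR, adjusted p = 0.100). The log2 ratios within replicates were 0.86, 0.36 and 0.74. The adjusted p was 0.0162 in DESeq2, and in edgeR it was 0.0102 without shCtrl replicate 2 and 1.35e-05 without replicate 2 of both groups. Over all alternatives it ran from 1.35e-05 to 0.999.

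Ephb1 and Ephb2, the most abundant receptors here, had small fold changes of opposite sign. EphB1 directs the uncrossed projection of retinal axons, and EphB2 binds NMDA receptors at excitatory synapses. Ephb1 (chr9:101922128-102354693, minus strand) had 3197, 3442 and 3146 normalized counts in shYthdf2 and 2896, 3081 and 2982 in shCtrl. Its groups did not overlap, with a log2 fold change of 0.13 ± 0.09 SE (edgeR, adjusted p = 0.461). Ephb2 (chr4:136647539-136835988, minus strand) had 3759, 4191 and 3936 in shYthdf2 and 4572, 4499 and 4479 in shCtrl. The highest shYthdf2 library stayed under the lowest of shCtrl, and the log2 fold change was -0.19 ± 0.09 SE (edgeR, adjusted p = 0.284). The confidence intervals, -0.08 to 0.33 for Ephb1 and -0.40 to 0.02 for Ephb2, both include 0.

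Ephb4, a receptor best known from veins, was the lowest of the 10 per length, with 38, 94 and 33 normalized counts in shYthdf2 and 53, 58 and 48 in shCtrl. Replicate 2 of shYthdf2 stood apart, and the log2 ratios of -0.50, 0.69 and -0.56 did not share a sign. The log2 fold change was 0.05, with a wide 95% confidence interval of -0.93 to 1.03 (edgeR, adjusted p = 0.962). Ephb6, whose kinase domain lacks activity, had 481, 489 and 503 against 542, 432 and 499 normalized counts. Both group means were 491 (log2 fold change 0.00, 95% confidence interval -0.29 to 0.29, edgeR, adjusted p = 0.998). Gene-level counts do not separate the isoforms of a receptor. Exons of Ephb1 overlap those of Gm26846 and exons of Ephb4 overlap those of Zan on the opposite strand, and the strand of the reads is not stated. Gm26846 had at most 37 counts in a library, beside at least 2712 for Ephb1, and Zan at most 9 beside at least 31 for Ephb4.

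Markers of other cell types also differed between libraries, in patterns that were not the same for every list. The summed normalized counts of 8 astrocyte and Bergmann glia markers were 12727, 11624 and 12650 in shYthdf2 replicates 1, 2 and 4 and 6136, 13555 and 6227 in shCtrl. Those of 8 oligodendrocyte lineage markers were 12931, 16959 and 13296 against 5020, 16698 and 4789. In both lists shCtrl replicate 2 stood with the shYthdf2 libraries, as it did for Epha3. Of these markers, 7 of 8 and 8 of 8 had higher means in shYthdf2, with 1 of each list higher at an unadjusted p under 0.05 (edgeR, against 9.5% of all genes). Microglia markers summed to 987, 288 and 1073 against 194, 735 and 172, with 5 of 5 tested at higher means. Vascular markers summed to 1648, 4204 and 1686 against 1433, 3389 and 1434, with 7 of 7 tested at higher means. Cldn5, which defines endothelial tight junctions, had at most 1 count in any library, and the microglial P2ry12 at most 4.

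Granule neuron markers had the highest sums of any marker list, at 160690 to 166284 normalized counts in shYthdf2 and 175003 to 190125 in shCtrl, so the cultures carried the markers of their label. The groups did not overlap. Of the 11 markers, 5 had higher and 6 lower means in shYthdf2, and 4 were lower at an unadjusted p under 0.05 (edgeR, against 10.6% of all genes). The sums of progenitor markers (7780 to 8191 against 10023 to 12145) and of 5 GABAergic interneuron markers (7571 to 9151 against 6328 to 6919) did not overlap either. The progenitor sum was mostly Barhl1, and 5 of 6 tested progenitor markers had higher means in shYthdf2. Purkinje cell markers (703 to 1005 against 853 to 925) and unipolar brush cell markers (10781 to 11562 against 10145 to 12055) overlapped. The part of other cell types in the receptor values was not tested.

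**Figure D3:**
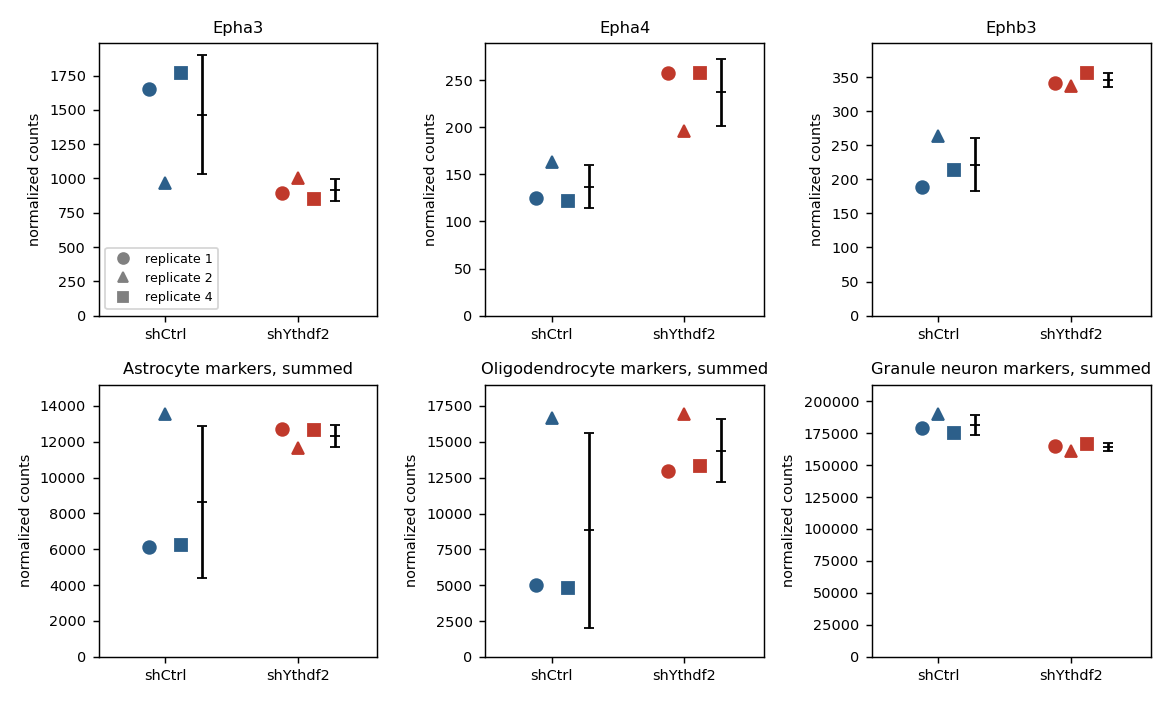
Normalized counts of Epha3, Epha4 and Ephb3 and summed normalized counts of 3 marker lists in each of the 6 libraries, on linear axes that start at 0, with points for single libraries and bars for the mean ± SD of each group. In shCtrl, replicate 2 stands apart from replicates 1 and 4 for Epha3, astrocyte and oligodendrocyte lineage markers.

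The sequences upstream of the 3 receptors with the largest fold changes are shown for reference, since these differ in direction. They come from the RefSeq table for GRCm38.p6, in which all 10 receptors were found, and run 5′ to 3′ on the strand of the gene, up to the annotated start. Capitals mark GGGCGG or CCGCCC, the element that Sp1 binds.
Epha3: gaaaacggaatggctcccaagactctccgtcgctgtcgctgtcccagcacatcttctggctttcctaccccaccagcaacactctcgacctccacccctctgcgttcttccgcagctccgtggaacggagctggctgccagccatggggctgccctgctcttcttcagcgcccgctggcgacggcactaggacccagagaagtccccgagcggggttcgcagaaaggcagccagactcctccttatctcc
Epha4: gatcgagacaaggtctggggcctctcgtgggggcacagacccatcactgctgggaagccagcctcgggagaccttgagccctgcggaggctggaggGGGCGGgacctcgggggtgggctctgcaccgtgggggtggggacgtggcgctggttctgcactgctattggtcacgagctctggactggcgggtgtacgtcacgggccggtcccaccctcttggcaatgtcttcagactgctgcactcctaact
Ephb3: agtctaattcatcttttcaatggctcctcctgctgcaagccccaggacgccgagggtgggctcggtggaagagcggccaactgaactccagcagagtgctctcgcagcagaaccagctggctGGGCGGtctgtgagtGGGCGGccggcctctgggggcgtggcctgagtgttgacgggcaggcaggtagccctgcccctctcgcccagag

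The Epha3 sequence is chr16:63864176-63864425 and that of Epha4 chr1:77515089-77515338, both on the minus strand, and that of Ephb3 is chr16:21204545-21204754 on the plus strand. In the 300-base windows around the start sites (250 bases upstream and 50 downstream), the receptors held 14 to 56 CpG dinucleotides, and the median of 32817 promoters was 7. GGGCGG or its reverse complement CCGCCC was in the window of 7 receptors (Epha4, Epha5, Epha7, Epha8, Ephb3, Ephb4 and Ephb6) and in 35.63% of all promoters. CCAAT or ATTGG was in 6 (Epha4, Epha7, Epha8, Ephb1, Ephb2 and Ephb4) and in 37.39% of all. The cyclic AMP response element TGACGTCA (1.79% of all), TGACTCA or TGAGTCA (5.2%) and TATAAA or TTTATA (13.62%) were in none of the receptors' windows. These are matches of letters on both strands.

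The other Eph receptors of the annotation that passed the filter were Epha1, Epha2, Epha6 and Epha10. Epha10 had a mean of 7.25 CPM per kb in shYthdf2 and 5.82 in shCtrl. These means were above those of Ephb6 in shYthdf2 and of Epha7 in shCtrl, but the libraries overlapped in both cases. In shYthdf2 replicate 2, Epha10 (4.55) was below Ephb6 (6.83). The normalized counts of Epha10, 1170, 622 and 1183 against 927, 564 and 897, overlapped between the groups (log2 fold change 0.32, edgeR, adjusted p = 0.581). Epha6 had only 4.9 to 18.7 normalized counts in a library. It was lower in shYthdf2 with no overlap (log2 fold change -0.95 ± 0.40 SE, edgeR, adjusted p = 0.243). Epha1 (log2 fold change 0.03, adjusted p = 0.970) and Epha2 (0.33, adjusted p = 0.755) overlapped and were low, with at most 65.9 normalized counts.

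All 8 ephrin ligands were tested, and 0 passed the adjusted threshold in edgeR. At an unadjusted p under 0.05, 2 were higher (Efnb3 and Efna5, against 9.5% of all genes) and 2 lower (Efnb2 and Efna2, against 10.6%), and the median log2 fold change was -0.25. Efnb3, which encodes the midline ligand ephrin-B3, had the highest level of the ligands, with 60.7 CPM per kb in shYthdf2 and 34.6 in shCtrl. It had 3598, 3712 and 3698 normalized counts in shYthdf2 and 1524, 3270 and 1476 in shCtrl (log2 fold change 0.81 ± 0.30 SE, edgeR, adjusted p = 0.191). The groups did not overlap, but shCtrl replicate 2 was close to the shYthdf2 libraries. Efna5, which encodes ephrin-A5, had 177, 164 and 210 against 118, 122 and 115, with no overlap and no library apart (log2 fold change 0.63 ± 0.17 SE, edgeR, adjusted p = 0.115).

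Efnb2, which encodes the ligand of EphB4, had 1499, 1492 and 1429 normalized counts in shYthdf2 and 2010, 1660 and 1880 in shCtrl. The log2 fold change was -0.33 ± 0.10 SE (edgeR, adjusted p = 0.143). Efna2 had 260, 380 and 305 against 434, 523 and 400, with a log2 fold change of -0.52 ± 0.18 SE (edgeR, adjusted p = 0.173). Neither gene's groups overlapped, and in each all shYthdf2 libraries were the lower ones. For Efna3 the groups did not overlap either (log2 fold change -0.36, edgeR, adjusted p = 0.389). Efna1 (-0.43, adjusted p = 0.4997), Efnb1 (-0.17, adjusted p = 0.582) and Efna4 (0.12, adjusted p = 0.848) overlapped.

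Of 30 genes for signalling from Eph receptors and ephrins and for their turnover, 1 passed the adjusted threshold, which 0.604% of all genes did. Abl1, a cytoplasmic tyrosine kinase that acts on the actin cytoskeleton, had 1924, 1914 and 1887 normalized counts in shYthdf2 and 3200, 2711 and 3041 in shCtrl. It fell by 0.64 on the log2 scale (SE 0.10, edgeR, adjusted p = 0.0496). The call was at the edge of the threshold. Abl1 was past the threshold in 8 of the 15 alternatives, among them DESeq2 (adjusted p = 1.43e-05), no filter (edgeR, 0.0116) and the replicate block (edgeR, 0.045). In the others it was not. There the adjusted p was 0.054 with library size alone, 0.0545 with limma-voom, 0.241 to 0.286 without replicate 1 or 4 of either group, and 0.921 with replicates 1 and 4 summed. The log2 fold change stayed between -0.72 and -0.60 over all alternatives.

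At an unadjusted p under 0.05, 4 of the 30 were higher (against 9.5% of all genes) and 7 lower, Abl1 included (against 10.6%), and the median log2 fold change was -0.04. The higher genes were Chn2, a chimaerin that inactivates Rac (log2 fold change 0.96, edgeR, adjusted p = 0.159), the adaptor Anks1b (0.38, adjusted p = 0.147), the Src-family kinase Yes1 (0.33, adjusted p = 0.230) and Ptpro, a phosphatase that acts on Eph receptors (0.30, adjusted p = 0.182). The lower genes included the adaptors Nck2 (-0.42, edgeR, adjusted p = 0.102) and Anks1 (-0.34, adjusted p = 0.184), and Ngef, the exchange factor ephexin that binds EphA4 (-0.50, adjusted p = 0.213). For these named genes the groups did not overlap. In replicate 2, however, the log2 ratio was near 0 for Anks1b (0.05), Anks1 (-0.04) and Ngef (-0.07). It was 0.52 there for Chn2, 0.285 for Yes1, 0.43 for Ptpro and -0.24 for Nck2. For Chn2 it was 1.36 and 1.33 in replicates 1 and 4. Kalrn, an exchange factor downstream of EphB2, had 205, 155 and 196 normalized counts in shYthdf2 and 519, 174 and 483 in shCtrl (log2 fold change -1.08, edgeR, adjusted p = 0.182). Its shCtrl replicate 2 lay within the shYthdf2 range, as for Epha3, and the same was true for the scaffold Grip1, with 402, 387 and 455 against 706, 453 and 709 (-0.59, edgeR, adjusted p = 0.154).

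**Figure D4:**
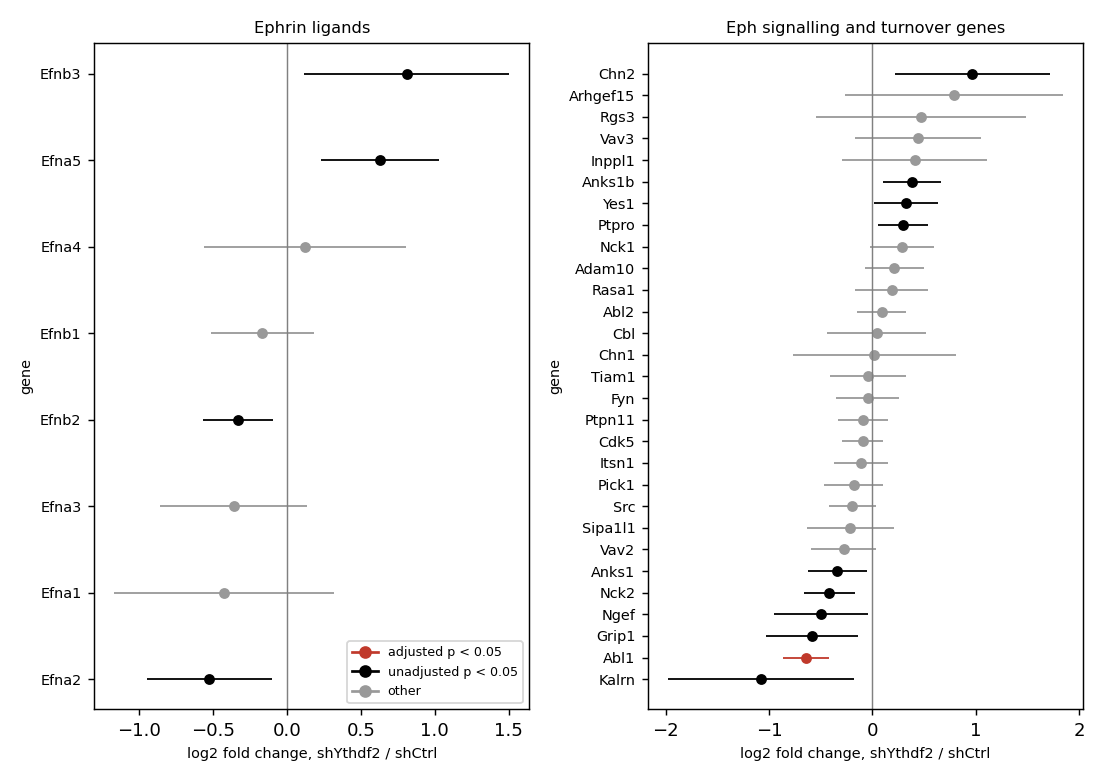
Log2 fold change, shYthdf2 against shCtrl, with its 95% confidence interval from edgeR, for the 8 ephrin ligands (left) and signalling and turnover genes (right), coloured by whether they passed an adjusted or an unadjusted p of 0.05. Efnb3 and Efna5 are to the right of 0 and Efnb2 and Efna2 to the left, and of all genes drawn only Abl1 passed the adjusted threshold.

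The genes whose log2 levels over the 6 libraries were most like those of Epha4 and Epha3 were searched among 12815 genes with a mean of at least 50 normalized counts. For Epha4 they were Vldlr, a reelin receptor (Pearson r = 0.999), the synapsin Syn3 (0.998) and Jakmip2 (0.998). For Epha3 they were Eprs, a tRNA synthetase (0.998), the actin cross-linker Actn1 (0.998) and Elmsan1 (0.998). These correlations are descriptions over libraries that share the groups and the split between replicates 1 and 4 and replicate 2. Actn1 had 703, 755 and 695 normalized counts in shYthdf2 and 1007, 756 and 1073 in shCtrl. It had the same split in shCtrl as Epha3, which follows from its choice by likeness to Epha3.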

How the data were processed

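RNA-seq libraries of cultured mouse GCs were analysed from a table of counts per gene that the authors deposited, as whole numbers without normalization. By the methods of the study, reads were filtered, aligned to GRCm38 and counted per gene. The submitters' processing notes name Bowtie 0.12.2 and mm9 instead, and which was used for this table cannot be told. The labels and the methods also name different library kits, and strand is not stated. Gene symbols and lengths were taken from the GENCODE annotation of GRCm38, which matched 52489 of 53421 genes. Of the genes in the table, 785 are outside that annotation. If reads were aligned to another build, the coordinates given here still refer to GRCm38.

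The test across genes was that of edgeR 4.0.16 (R 4.3.3) with filterByExpr (minimum count 10, minimum total count 15), TMM normalization, the quasi-likelihood test and Benjamini-Hochberg adjustment over all 17214 genes tested, which hold 99.84% of the counts. A threshold of 0.05 was used. Normalized counts are at a common library size of 18981273. The libraries held 17246821 to 21546595 counts, and SDs include counting error. Permutation tests were two-sided and exact. Alternatives tried were DESeq2 1.42.0, limma-voom (limma 3.58.1), RLE factors, library size alone, no filter, 10 counts in every library, the replicate block, the longest transcript as length, and libraries left out or summed. Simulated data for shYthdf2 against shCtrl had 200 changed genes among 17214, of which 16877 were tested. In these, edgeR found 52% of changes of 1 on the log2 scale and 97% of changes of 2. Of 156 calls, 4.49% were unchanged genes. Both sizes are above that of every receptor in the main fit, where the largest was 0.79 (Epha4). Same-numbered libraries deviated together from their group means (correlations 0.25, 0.361 and 0.305 in replicates 1, 2 and 4). The main test had no block and did not pair the libraries. Only the replicate block and the ratios within replicates took the numbers as pairs, although the labels do not say what a number shares. Differently numbered libraries were not compared in this way, and replicate 2 stood apart in both groups. The correlations therefore cannot tell whether replicate 1 pairs with replicate 1 or with replicate 4.

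The receptors and the gene lists were chosen with earlier results of these data known. Named were all 10 receptors, Ythdf2, the other Eph receptors, the ephrins, the signalling genes with an unadjusted p under 0.05 (1 of them, counted in its list, is not reported here), and the 3 genes most like the receptor with the largest rise and the one with the largest fall. Actn1 was picked from these to give values after they were seen. Sequences were read with Python 3.11.15 from GENCODE transcripts and RefSeq promoters. Protein sequences were not used here.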

Additional observations from a re-analysis of the deposited data

How the results depend on the processing

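The limits of these values are the 3 libraries per group, the closeness of replicates 1 and 4, and the few counts of Ephb4 and Epha6. The closeness of the replicate 2 libraries across the groups is another. The number of genes past the adjusted threshold was 104 and became 1321 with DESeq2, 24 with limma-voom, 639 without a filter, 232 with the replicate block and 0 with replicates 1 and 4 summed, and it was 0 to 9186 with libraries left out. The number of Eph receptors past it was 2 with DESeq2 and 0 to 7 with libraries left out. At an unadjusted p under 0.05 the 3 receptors became 5 with the replicate block, 0 with replicates 1 and 4 summed and 2 to 8 with libraries left out. Of the ephrins, 4 became 0 when summed and 1 to 5 with libraries left out, and of the signalling genes 11 became 2 and 3 to 25. The block changed no call of a receptor or of Abl1 at the adjusted threshold. The log2 fold change of Ephb6 was -0.00203 with RLE size factors, -0.00224 with DESeq2, -0.00827 without a filter and -0.0864 to 0.0713 with libraries left out. That of Ephb4 was -0.104 with limma-voom, -0.0857 with the replicate block and -0.595 to 0.309 with libraries left out. With libraries left out, that of Epha5 was -0.0435 to 0.0983 and that of Epha7 -0.249 to 0.0111, so these 4 receptors have no stable direction. Epha3, Epha4, Epha8, Ephb1, Ephb2, Ephb3, Ythdf2 and Abl1 kept their direction under every alternative run. The cause of these differences was not tested.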
